A study of Homo sapiens with 12 samples.

Results

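The 9p21 locus of chromosome 9 holds CDKN2A, CDKN2B and MTAP side by side, and many squamous carcinomas have lost it. CDKN2A gives rise to p16INK4a, an inhibitor of the cyclin D kinases, and, from another first exon and reading frame, to p14ARF, which restrains MDM2. CDKN2B encodes p15INK4b, a second inhibitor of the same kinases, and MTAP encodes the phosphorylase that recycles methylthioadenosine into methionine. In the RB pathway, D-type cyclins with CDK4 or CDK6 phosphorylate RB1, E-type cyclins with CDK2 continue this, and phosphorylated RB1 releases the E2F factors that transcribe S-phase genes. The genes followed here are CDKN2A, CDKN2B, MTAP, RB1, CDK4, CDK6, CCND2, CCND3, CCNE1 and CCNE2, 10 of the 61044 gene IDs in the table, chosen by symbol. The question put to them was whether the 9p21 genes are read in control and knockdown libraries alike.

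RNA sequencing was done on SCC-15 cells, a line grown from a squamous carcinoma of the mouth. NC cells carried a negative-control short hairpin RNA (shRNA). The shRNA1, shRNA2 and shRNA3 groups each carried a different hairpin against FMOD, the gene of fibromodulin, a proteoglycan of the extracellular matrix. All 4 groups were grown alike and harvested after 48 hours, with 3 libraries per group. All come from a single cell line, and nothing in the labels says whether the libraries of a group came from separate cultures, so the p-values below measure only the spread between these libraries. The hairpin sequences, the vector and any selection of cells are not given in the sources used here.

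Totals ranged from 17286934 to 19567192 counts per library. FMOD itself was read at 2, 2 and 3 counts in the NC libraries and 0 in all 9 shRNA libraries, which is at the limit of detection and cannot check the labels. In a principal component analysis of log2 CPM (counts per 1000000 counts of a library, scaled by TMM, which sets libraries to a common level), the first component held 61.1% of the variance and set NC (−127 to −125) apart from all shRNA libraries (33.8 to 45.6). The second component held 26.0% and set shRNA3 libraries 1 and 2 (−102 and −104) apart from every other library (2.94 to 39.6), shRNA3 library 3 included (29.4). Log2 CPM correlated at 0.995 between shRNA3 libraries 1 and 2, and at 0.919 and 0.916 with library 3. For the 10 genes, shRNA3 results are therefore also given for library 3 alone, and for other named genes where this ended a call, turned a direction or moved a value by over 1.5 times. Library 3 alone has no spread of its own, so p-values and calls given for it borrow the spread of the other groups. They are no test of shRNA3 as a group. Of 10 markers of squamous epithelium all were read, with a summed level of 2632 to 2820 CPM in NC, 2318 to 2851 with shRNA1, 2778 to 2834 with shRNA2 and 2387 to 3306 with shRNA3. Within that sum KRT5, a basal keratin, was 12.6- to 47.1-fold lower with the 3 shRNAs. CDH1 (E-cadherin) was 4.89- to 8.44-fold lower, KRT14, the partner keratin of KRT5, 3.23- to 19.6-fold higher (3.38-fold in shRNA3 library 3 alone) and DSP (desmoplakin) 2.32- to 3.39-fold higher.

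Summed markers of other cell types were far below the squamous sum and moved with the groups. The 7 fibroblast genes summed to 56.7 to 59.6 CPM in NC, 15.6 to 21.7 with shRNA1, 44.2 to 48.2 with shRNA2 and 32.9 to 86.7 with shRNA3, mostly COL1A1, with COL3A1 at no more than 3 counts in any library. Within it COL1A2, a chain of type I collagen, was 65.2-fold lower with shRNA1 and at least 27.4- and 21.6-fold lower with shRNA2 and shRNA3, and PDGFRB, a receptor of mesenchymal cells, 13.9-, 9.69- and 14.6-fold lower. The 3 endothelial genes summed to 17.6 to 23.1, 3.88 to 5.88, 6.87 to 8.46 and 8.68 to 13.3 CPM in the same order. That sum holds opposite courses: PECAM1 (CD31) rose from 0.133 ± 0.0553 CPM in NC to 2.60 ± 0.449, 4.76 ± 0.82 and 8.74 ± 0.838 (SD, n = 3), while CDH5 (VE-cadherin) was 8.90-, 6.83- and 12.3-fold lower (6.20-fold in shRNA3 library 3 alone). COL1A2 had 0 to 4 counts in the shRNA libraries and PECAM1 2 to 4 in NC, so both passed the filter on low counts through the side where they are high and had to differ. The 4 leukocyte genes summed to 53.9 to 72.3, 44.1 to 96.6, 80.0 to 85.5 and 108 to 236 CPM, mostly CD68, with PTPRC at no more than 9 counts. CD68 was called with shRNA3 and not with the other hairpins, higher by 1.60 on the log2 scale (0.80 in shRNA3 library 3 alone). No list of another cell type was at 0 as a whole, and the part of these levels in the results below was not tested. In bulk RNA, fewer cells that express a gene and less of its RNA per cell cannot be told apart.

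CDKN2A, CDKN2B and MTAP were read in all 12 libraries. Their lowest counts were 289 for CDKN2A, 124 for CDKN2B and 363 for MTAP, and all 3 lowest counts were in shRNA libraries. None was absent from a group, but their levels differed: CDKN2A fell with shRNA2, CDKN2B with shRNA1 and shRNA2, and MTAP with shRNA3. The plot of levels by library shows each value.

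CDKN2A (ENSG00000147889) lies on chromosome 9 at 21967753 to 21995301, minus strand (GRCh38, GENCODE release 29). CDKN2B (ENSG00000147883) lies beside it at 22002903 to 22009363 on the same strand, and MTAP (ENSG00000099810) at 21802543 to 21937651 on the plus strand. A count for CDKN2A is a sum over p16INK4a and p14ARF transcripts. The 250 bases before each RefSeq start are printed here for the inhibitor genes, whose levels ran together across libraries, and for CCNE1, a cyclin gene that rose with every hairpin. Capitals mark the GC box GGGCGG or its reverse complement CCGCCC, and each sequence runs 5′ to 3′ along its gene's strand (RefSeq, GRCh38.p14).
CDKN2A before the p14ARF start (chr9:21995325-21995574, minus strand): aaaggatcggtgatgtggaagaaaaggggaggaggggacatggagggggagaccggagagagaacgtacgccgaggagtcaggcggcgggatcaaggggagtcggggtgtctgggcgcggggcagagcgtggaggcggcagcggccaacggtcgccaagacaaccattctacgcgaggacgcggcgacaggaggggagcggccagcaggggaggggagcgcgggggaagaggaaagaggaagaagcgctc
CDKN2A before the p16INK4a start (chr9:21974858-21975107, minus strand): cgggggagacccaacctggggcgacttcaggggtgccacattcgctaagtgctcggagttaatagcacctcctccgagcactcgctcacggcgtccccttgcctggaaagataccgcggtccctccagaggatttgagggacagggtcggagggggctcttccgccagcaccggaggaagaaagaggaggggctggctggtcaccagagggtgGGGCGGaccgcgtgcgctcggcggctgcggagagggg
CDKN2B (chr9:22009306-22009555, minus strand): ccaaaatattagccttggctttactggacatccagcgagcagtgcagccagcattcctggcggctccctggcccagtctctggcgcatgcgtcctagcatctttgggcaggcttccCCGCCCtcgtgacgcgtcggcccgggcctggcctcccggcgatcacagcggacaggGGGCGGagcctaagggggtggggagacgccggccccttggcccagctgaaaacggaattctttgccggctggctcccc
CCNE1 (chr19:29811741-29811990, plus strand): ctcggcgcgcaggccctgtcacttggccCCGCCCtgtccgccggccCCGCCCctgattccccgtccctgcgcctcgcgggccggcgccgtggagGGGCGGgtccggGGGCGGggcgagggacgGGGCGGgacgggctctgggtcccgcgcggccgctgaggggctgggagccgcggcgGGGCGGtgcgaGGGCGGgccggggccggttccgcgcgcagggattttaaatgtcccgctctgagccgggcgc

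The CDKN2A windows held 0 and 1 GC boxes, the CDKN2B window 2 and the CCNE1 window 7. At least 1 box was in 42.6% of the 35116 windows of this kind in the RefSeq table, and 2 or more in 24.3%. CpG dinucleotides numbered 24 and 20 in the CDKN2A windows, 18 for CDKN2B and 39 for CCNE1, beside a median of 11 over all windows. The octamers TTTCCCGC, TTTCGCGC, TTTGCCGC and TTTGGCGC, searched on both strands as E2F matches, were in none of the 12 windows of the 8 genes matched by symbol, and in 2.79% of all windows. The only RB1 window (chr13:48476200-48476449) lies inside the gene, far past its first base at 48303726. The bases before that first base were therefore not searched. A match or its absence describes these letters only.

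**Figure D1:**
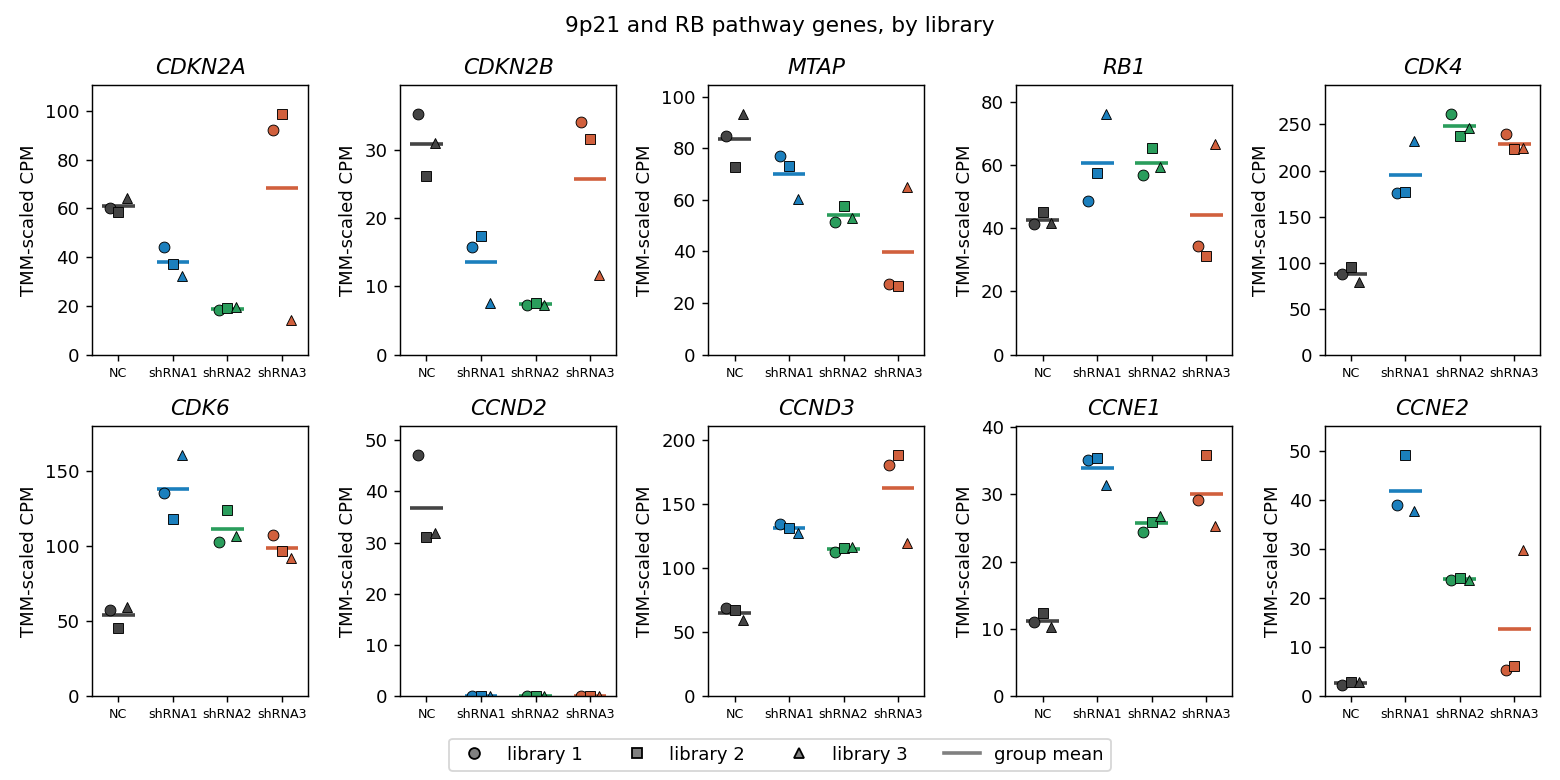
TMM-scaled CPM of the 10 genes in each library (vertical axis, starting at 0), by group, with circles for library 1, squares for library 2, triangles for library 3 and a line for the group mean. CDKN2A and CDKN2B in shRNA3 libraries 1 and 2 sit within or above the NC range while library 3 sits far below it, and CCND2 is at 0 in all 9 shRNA libraries.

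CDKN2A levels in NC were 60.1, 58.5 and 64.4 CPM. With shRNA1 they were 44.2, 37.1 and 32.3 CPM, with shRNA2 18.3, 19.0 and 19.4, and with shRNA3 92.2, 98.8 and 14.4. All libraries of shRNA1 and shRNA2 and library 3 of shRNA3 were below NC, while shRNA3 libraries 1 and 2 were above it. CDKN2A fell with shRNA2, by 1.69 on the log2 scale (SE 0.50, adjusted p = 0.0141, edgeR quasi-likelihood test with Benjamini-Hochberg adjustment). The log2 fold change with shRNA1 was −0.69 (SE 0.49, adjusted p = 0.248) and with shRNA3 0.16 (SE 0.48, adjusted p = 0.796), neither past the threshold of 0.05. The 3 libraries of shRNA3 thus average values on both sides of NC. With only the 6 libraries of NC and shRNA1 fitted, the shRNA1 value was again −0.69 (edgeR adjusted p = 0.000981). When shRNA3 libraries 1 and 2 were left out, the log2 fold change of CDKN2A was −0.68 with shRNA1, −1.67 with shRNA2 and −2.06 in shRNA3 library 3. With shRNA3 library 3 left out instead, CDKN2A was higher with shRNA3, by 0.64 (edgeR adjusted p = 0.000213). The size of that rise depends on the scaling. Before TMM scaling, shRNA3 libraries 1 and 2 were at 71.0 and 78.4 CPM, beside 65.7, 64.8 and 71.1 in NC.

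CDKN2B, the neighbouring kinase inhibitor, was read at 35.3, 26.2 and 30.9 CPM in NC, at 15.8, 17.4 and 7.59 with shRNA1 and at 7.26, 7.50 and 7.31 with shRNA2. In shRNA3 its levels were 34.1, 31.6 and 11.7 CPM. As for CDKN2A, library 3 of shRNA3 was below NC, but libraries 1 and 2 were within the NC range. CDKN2B fell by 1.18 with shRNA1 (SE 0.38, edgeR adjusted p = 0.0205) and by 2.07 with shRNA2 (SE 0.39, edgeR adjusted p = 0.00103). With shRNA3 its log2 fold change was −0.26 (SE 0.38, edgeR adjusted p = 0.584), and in shRNA3 library 3 alone CDKN2B was lower by 1.36. The shRNA1 call for CDKN2B was lost without NC library 1 (log2 fold change −1.07, edgeR adjusted p = 0.0644) and without shRNA1 library 3 (−0.88, edgeR adjusted p = 0.0709). The precision behind the lowest value is that of 124 counts, a level of 7.10 CPM before TMM scaling with an exact (Clopper-Pearson) 95% interval of 5.91 to 8.47, which covers counting error only.

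MTAP was read at 84.9, 72.9 and 93.4 CPM in NC and at 77.1, 73.1 and 60.3 with shRNA1. With shRNA2 its levels were 51.6, 57.6 and 52.9 CPM, all below NC, and with shRNA3 27.4, 26.5 and 65.1. Libraries of shRNA1 overlapped NC. The shRNA3 libraries split the other way from the inhibitors, since libraries 1 and 2 were the lowest of all 12 for MTAP. MTAP fell by 1.07 with shRNA3 (SE 0.30, edgeR adjusted p = 0.00936), and its log2 fold change was −0.25 with shRNA1 (edgeR adjusted p = 0.479) and −0.63 with shRNA2 (edgeR adjusted p = 0.0903). The shRNA3 value was −1.64 without shRNA3 library 3. With only the 6 libraries of NC and shRNA2 fitted, MTAP fell with shRNA2 by 0.63 (edgeR adjusted p = 4.47e-06). Once shRNA3 libraries 1 and 2 were left out, its log2 fold change was −0.62 with shRNA2 and −0.33 in shRNA3 library 3.

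Across the 12 libraries, log2(CPM + 1) of CDKN2A and CDKN2B correlated at r = 0.89, and CDKN2A and MTAP at r = −0.28. These are descriptions over 12 libraries that share their groups, with most of the spread between groups and within shRNA3. Of 14711 genes compared, the 3 most like CDKN2A were RPL26, a ribosomal protein gene (r = 0.99), RELT, a receptor of the TNF receptor family (0.99), and GABARAPL1, an autophagy gene (0.99). Most like CDKN2B were SLC35A2, a UDP-galactose transporter gene (0.99), SAT1, which acetylates polyamines (0.99), and RNF152, a ubiquitin ligase gene (0.99). Most like MTAP were PARP9 (0.99), SLFN5 (0.98) and ZNF791 (0.98).

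Around the locus, 42 further genes lie within 5 Mb of CDKN2A, counting the protein-coding genes, CDKN2B-AS1 and MIR31HG, and 21 of them were read well enough to be tested. Of these 21, 2 rose and 10 fell with shRNA1, 1 rose and 8 fell with shRNA2, and 2 rose and 11 fell with shRNA3. SH3GL2, HACD4 and TUSC1 are in these counts but had no more than 4 counts per library either in NC or in the shRNA groups. They passed the filter through the side where they are high and so had to differ. Of the other 18 genes, 1 rose and 8 fell with shRNA1, 0 and 6 with shRNA2, and 1 and 9 with shRNA3. Over all 17532 genes tested, 26.8% were called higher and 30.6% lower with shRNA1, 24.6% and 28.4% with shRNA2, and 26.4% and 27.6% with shRNA3. The median log2 fold change of the 21 genes was −0.83, −0.84 and −1.19, beside −0.02, −0.05 and −0.03 over all genes, and it was the same with genes at the detection limit set to their bounds. With shRNA3 libraries 1 and 2 left out, 22 genes were tested, of which 4 rose and 14 fell with shRNA1, 2 rose and 17 fell with shRNA2, and 1 rose and 10 fell in shRNA3 library 3. The shares of all genes were then 34.3% higher and 37.0% lower, 32.1% and 36.0%, and 28.1% and 28.8%. Of the 16 interferon genes of the window, 13 were at 0 in all 12 libraries and the highest total, of IFNE, was 15 counts.

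**Figure D2:**
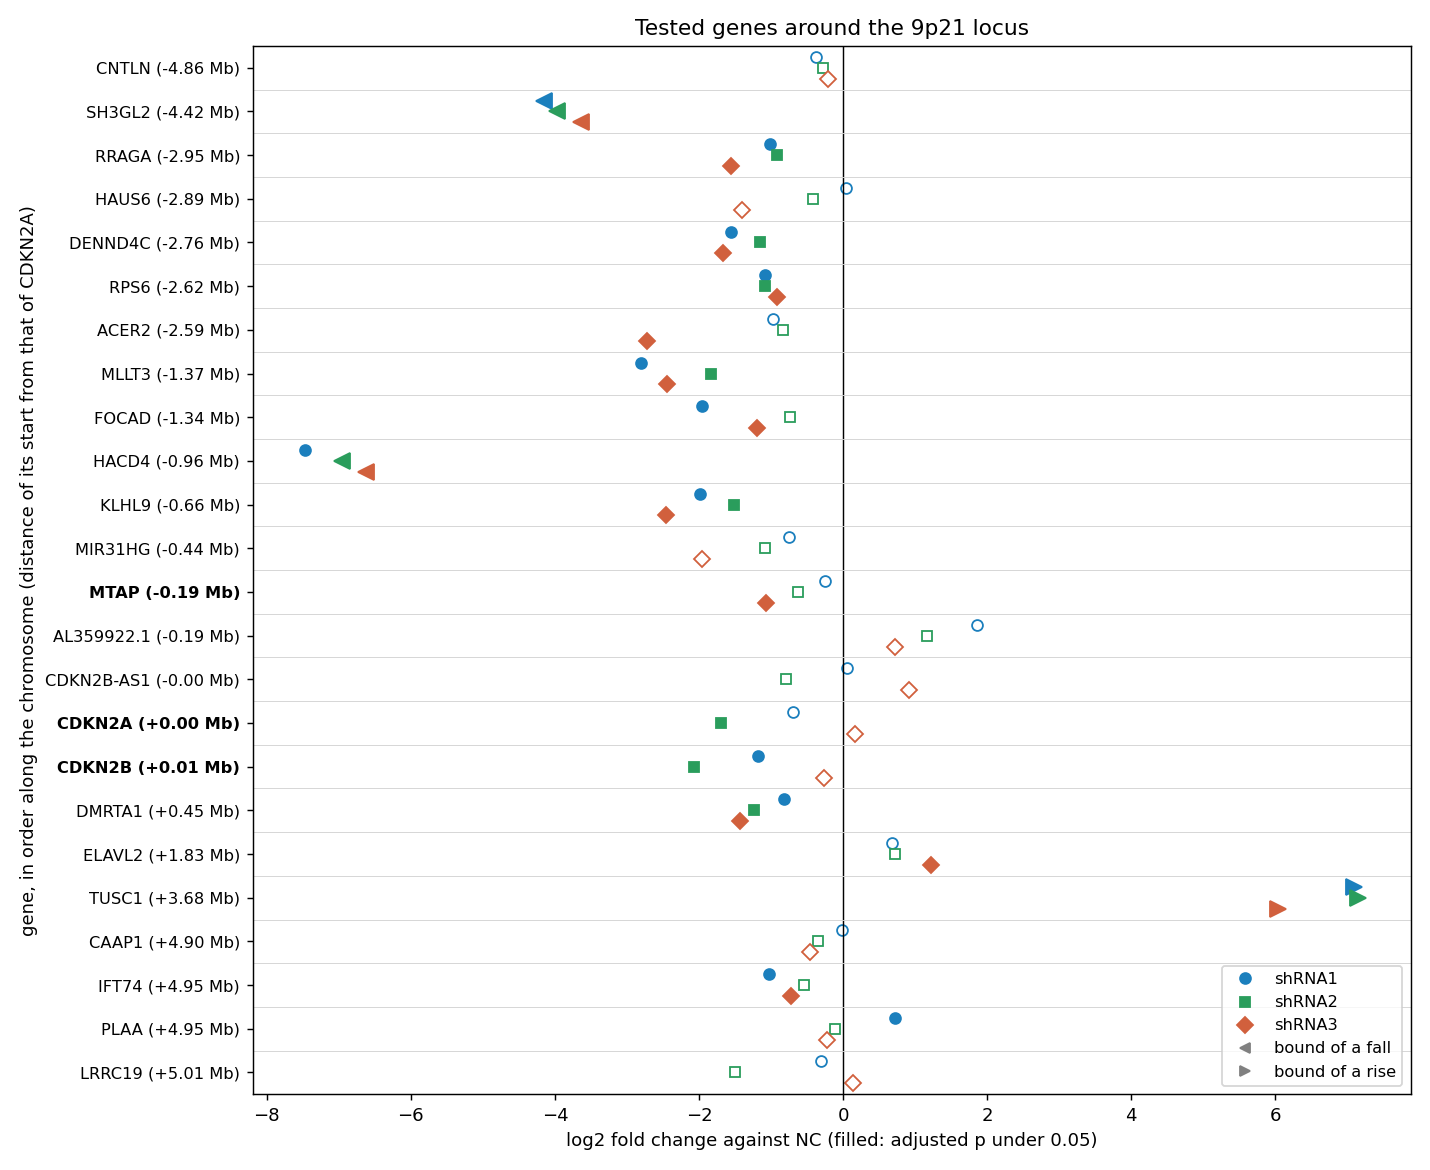
Log2 fold change against NC (horizontal axis) of the 24 tested genes around the locus, the 9p21 members in bold, in chromosome order with the distance of each gene's start from that of CDKN2A in Mb. Filled symbols passed an adjusted p of 0.05 and triangles are bounds for genes at or under 3 counts in the libraries of a group. HACD4 and SH3GL2 lie far to the left, TUSC1 far to the right, and MTAP, CDKN2A and CDKN2B between them.

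HACD4, a very-long-chain fatty acid dehydratase gene 963.7 kb towards the telomere, had 430, 465 and 412 counts in NC and 0 to 4 in the shRNA libraries. It was 176-fold lower with shRNA1, at least 124-fold lower with shRNA2 and at least 98.2-fold lower with shRNA3 (147-fold or more in library 3 alone). TUSC1, a small gene 3683.1 kb on the other side, had 0, 1 and 1 counts in NC and 331 to 521 with shRNA1, 347 to 397 with shRNA2 and 73, 66 and 398 with shRNA3. It was at least 136-, 142- and 65.7-fold higher (at least 130-fold in shRNA3 library 3 alone). MLLT3, a subunit gene of the super elongation complex 1372.8 kb from CDKN2A, fell from 14.7 ± 0.478 CPM (SD, n = 3) to 2.10 ± 0.424, 4.12 ± 0.703 and 2.69 ± 0.823. SH3GL2, singled out after its values were seen, had 62, 55 and 48 counts in NC and 0 in all 9 shRNA libraries, at least 17.8-, 15.7- and 12.4-fold lower.

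The nearest tested neighbours did not share 1 course. KLHL9, a ubiquitin ligase adaptor gene and the nearest tested protein-coding gene on the telomere side of MTAP, fell from 53.2 ± 2.57 CPM to 13.5 ± 2.91, 18.6 ± 1.03 and 9.65 ± 5.89 (SD, n = 3). Its fall with shRNA3 was 5.47-fold, and 3.17-fold in library 3 alone (edgeR adjusted p = 2.42e-05). DMRTA1, 451.5 kb beyond CDKN2A and encoding a putative transcription factor, fell by 0.83, 1.24 and 1.42 (edgeR adjusted p = 0.0265, 0.00351 and 0.00161). CDKN2B-AS1, the antisense transcript ANRIL that runs across CDKN2B, had 96, 92 and 80 counts in NC, 78, 80 and 121 with shRNA1, 44, 52 and 40 with shRNA2 and 172, 127 and 69 with shRNA3, and was not called over all 12 libraries (edgeR adjusted p = 0.913, 0.125 and 0.0758). Once shRNA3 libraries 1 and 2 were left out, CDKN2B-AS1 fell with shRNA2, by 0.78 (edgeR adjusted p = 0.0123), and its log2 fold change in shRNA3 library 3 was −0.36 (edgeR adjusted p = 0.388). MIR31HG, the host gene of miR-31, had 95, 146 and 139 counts in NC, 42 to 93 with shRNA1 and shRNA2, and 0, 17 and 70 with shRNA3 (edgeR adjusted p = 0.417, 0.252 and 0.0538). In the smaller set of 10 libraries MIR31HG fell by 0.73 with shRNA1 and by 1.07 with shRNA2 (edgeR adjusted p = 0.0285 and 0.00436) and was at −0.84 in shRNA3 library 3 (edgeR adjusted p = 0.0932). AL359922.1, a readthrough model that begins with MTAP and overlaps both inhibitor genes on the other strand, had 25, 50 and 0 counts in NC and 23 to 97 in the shRNA libraries. It was called in that smaller set alone, higher by 1.87 with shRNA1 (edgeR adjusted p = 0.0386). Whether strand was used in counting is not given in the sources used here, so reads of CDKN2A or CDKN2B and of these opposite-strand models cannot be told apart with certainty. The largest of the antisense counts was 172, in a library with 1243 counts for CDKN2A and 460 for CDKN2B.

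RB1, the pathway's brake (ENSG00000139687, chromosome 13, 48303726 to 48599436, plus strand), was read at 41.2, 45.2 and 41.5 CPM in NC. It stood at 48.6, 57.6 and 76.2 CPM with shRNA1, at 57.0, 65.3 and 59.3 with shRNA2 and at 34.3, 31.2 and 66.7 with shRNA3. All 6 libraries of shRNA1 and shRNA2 and shRNA3 library 3 were above NC, and shRNA3 libraries 1 and 2 were below it. The log2 fold changes were 0.51, 0.51 and 0.05 (SE 0.26 for each; edgeR adjusted p = 0.117, 0.127 and 0.886), none past the threshold. With only the 6 libraries of each comparison fitted, RB1 rose by 0.51 both with shRNA1 and with shRNA2 (edgeR adjusted p = 0.0171 and 1.16e-05). In the fit without libraries 1 and 2 of shRNA3, its log2 fold changes were 0.53, 0.52 and 0.68. With shRNA3 library 3 left out instead, RB1 was lower with shRNA3, at a log2 fold change of −0.39 (edgeR adjusted p = 0.0397). LPAR6, a receptor gene inside RB1 on the other strand and named here for that overlap, had 68 to 92 counts in NC and 0 to 3 in the shRNA libraries.

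The kinases that p16INK4a and p15INK4b inhibit rose with every hairpin. CDK4 (ENSG00000135446, chromosome 12, 57747727 to 57756013, minus strand) was read at 87.2, 95.6 and 79.1 CPM in NC, at 176, 177 and 232 with shRNA1, at 262, 238 and 246 with shRNA2 and at 240, 224 and 225 with shRNA3. The lowest shRNA library was thus well above the highest NC library, and shRNA3 libraries 1 and 2 did not stand apart. CDK4 rose 2.23-, 2.85- and 2.63-fold (log2 fold change 1.16, 1.51 and 1.39, SE 0.14, edgeR adjusted p = 3.52e-05, 5.76e-06 and 1.07e-05), and was 2.63-fold higher in shRNA3 library 3 alone. CDK6, the second kinase of D-type cyclins (ENSG00000105810, chromosome 7, 92604921 to 92836594, minus strand), was read at 57.1, 45.0 and 59.1 CPM in NC and at 135, 118 and 161 with shRNA1. It was read at 103, 124 and 106 CPM with shRNA2 and at 107, 96.3 and 92.0 with shRNA3. Again no shRNA library overlapped NC, and CDK6 rose 2.57-, 2.07- and 1.83-fold (edgeR adjusted p = 2.84e-05, 0.00019 and 0.000654), and was 1.75-fold higher in shRNA3 library 3 alone. TSPAN31 and MARCH9 overlap CDK4 on the other strand. TSPAN31 went the other way, from 27.5 ± 0.576 CPM in NC to 13.4 ± 0.817, 9.92 ± 0.814 and 15.5 ± 3.92 (SD, n = 3). MARCH9 went the same way as CDK4, from 23.2 ± 2.98 CPM to 28.0 ± 4.75, 43.4 ± 1.80 and 39.2 ± 1.92 (edgeR adjusted p = 0.166, 0.000572 and 0.00192).

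**Figure D3:**
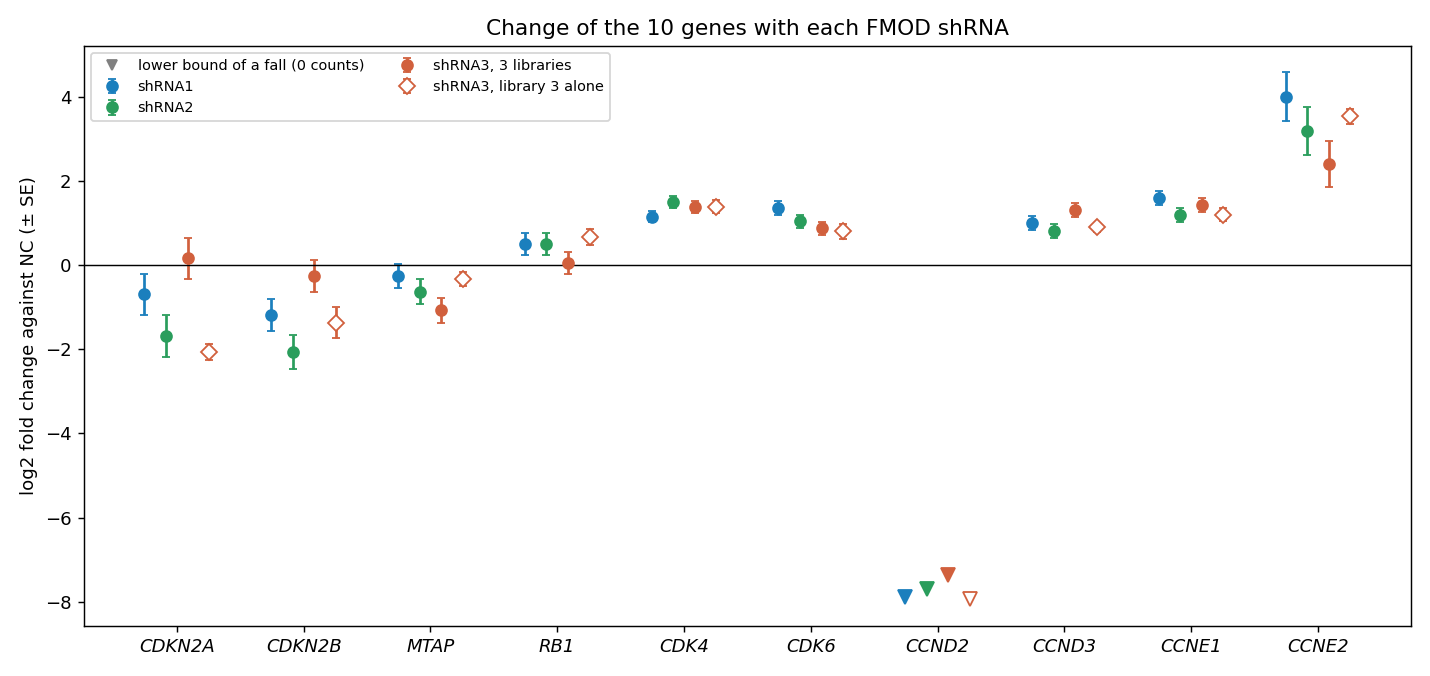
Log2 fold change against NC (vertical axis, error bars ± SE) of each gene for shRNA1, shRNA2, shRNA3 and shRNA3 library 3 alone, with triangles for lower bounds of a fall in the counts assigned to CCND2. CDK4, CDK6, CCND3, CCNE1 and CCNE2 are above 0 for all hairpins, and library 3 alone moves CDKN2A from 0.16 to −2.06.

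Of the D-type cyclins, CCND2 was assigned counts in NC alone. CCND2 (cyclin D2, ENSG00000118971, chromosome 12, 4273772 to 4305350, plus strand) had 933, 631 and 629 counts in NC, or 47.1, 31.1 and 31.9 CPM, and 0 counts in each of the 9 shRNA libraries. A count of 0 allows up to 3 counts, or 0.145 to 0.222 CPM in these libraries. Counts assigned to CCND2 were at least 237-fold lower with shRNA1, at least 209-fold with shRNA2 and at least 165-fold with shRNA3 (at least 246-fold in library 3 alone). The edgeR adjusted p-values were 3.07e-05, 3.36e-05 and 3.77e-05, but CCND2 passed the filter on low counts through NC alone and so had to differ. AC008012.1, another gene model on the same strand that overlaps CCND2, had 131, 117 and 114 counts in NC, 0, 77 and 0 with shRNA1, 76, 0 and 0 with shRNA2 and 8, 3 and 0 with shRNA3. Reads of the shared stretch could have been assigned to either model, so up to 77 counts in a shRNA library may belong to CCND2, and the bounds above are not bounds for cyclin D2 RNA. With the counts of both models added, an alternative chosen after the data were seen, NC stood at 42.8 ± 9.51 CPM and the shRNAs at 1.24 ± 2.15, 1.48 ± 2.57 and 0.271 ± 0.30 (SD, n = 3). These means were 34.4-, 28.8- and 158-fold below NC, with the highest shRNA library at 4.45 CPM and the lowest NC library at 36.8. Other genes within 500 kb, looked up after these values were seen, did not all fall. PARP11 fell from 13.0 ± 0.931 CPM to 2.19 ± 0.157, 2.43 ± 0.385 and 1.71 ± 0.297, and RAD51AP1, a homologous recombination gene, rose from 26.8 ± 2.89 CPM to 47.3 ± 16.2, 60.9 ± 2.90 and 70.5 ± 1.56 (SD, n = 3). NDUFA9, a complex I gene, was at 61.7 ± 5.81 CPM in NC and at 54.7 ± 11.7, 75.1 ± 7.12 and 63.2 ± 3.32 with the shRNAs and was not called. TIGAR, whose start lies 34.0 kb from that of CCND2, was at 3.08 ± 1.14 CPM in NC and 36.5 ± 13.2, 8.95 ± 1.89 and 5.29 ± 8.53 with the shRNAs. It rose with shRNA1 alone (log2 fold change 3.57, edgeR adjusted p = 0.0131). Its counts in shRNA3 were 5, 5 and 305.

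CCND3, encoding cyclin D3 (ENSG00000112576, chromosome 6, 41934933 to 42050357, minus strand), was read at 69.0, 67.2 and 59.7 CPM in NC, at 134, 132 and 127 with shRNA1 and at 113, 116 and 117 with shRNA2. With shRNA3 its levels were 181, 189 and 119 CPM. All 9 shRNA libraries were above NC, with shRNA3 libraries 1 and 2 the highest. CCND3 rose 2.01-, 1.76- and 2.49-fold (log2 fold change 1.01, 0.82 and 1.32, SE 0.16; edgeR adjusted p = 0.000282, 0.00121 and 4.66e-05). In shRNA3 library 3 alone it was 1.87-fold higher. CCND1, the third D-type cyclin, was at 274 ± 6.31 CPM in NC, 234 ± 65.7 with shRNA1, 129 ± 5.67 with shRNA2 and 171 ± 61.7 with shRNA3 (SD, n = 3). It fell with shRNA2 by 1.09 (edgeR adjusted p = 0.00313) and with shRNA3 by 0.68 (edgeR adjusted p = 0.0336), but was not called in shRNA3 library 3 alone (log2 fold change −0.15, edgeR adjusted p = 0.573).

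The E-type cyclins, which partner CDK2 at the entry to S phase, rose with every hairpin. CCNE1 (ENSG00000105173, chromosome 19, 29811898 to 29824308, plus strand) was read at 11.1, 12.4 and 10.2 CPM in NC, at 35.2, 35.4 and 31.3 with shRNA1, at 24.4, 25.9 and 26.8 with shRNA2 and at 29.2, 35.9 and 25.2 with shRNA3. No shRNA library overlapped NC, and CCNE1 rose 3.03-, 2.29- and 2.68-fold (edgeR adjusted p = 1.36e-05, 0.000111 and 3.31e-05), and was 2.29-fold higher in shRNA3 library 3 alone. CCNE2 (ENSG00000175305, chromosome 8, 94879770 to 94896678, minus strand) was read at 2.17, 2.91 and 2.74 CPM in NC. It stood at 39.0, 49.3 and 37.7 CPM with shRNA1, at 23.7, 24.1 and 23.7 with shRNA2 and at 5.34, 6.12 and 29.7 with shRNA3. All 9 libraries were above NC, but shRNA3 libraries 1 and 2 were near it. CCNE2 rose 16.1-, 9.13- and 5.30-fold (edgeR adjusted p = 0.000145, 0.00061 and 0.00334), and was 11.6-fold higher in shRNA3 library 3 alone. Without that library its log2 fold change was 1.13. The NC level rests on 43 to 59 counts. NDUFAF6 and INTS8 overlap CCNE2 on the other strand. NDUFAF6 rose too, from 7.33 ± 1.10 CPM to 24.3 ± 2.23, 18.5 ± 2.27 and 26.0 ± 1.02 (SD, n = 3). INTS8 was at 35.3 ± 0.949 CPM in NC and at 47.1 ± 19.1, 59.7 ± 2.41 and 34.8 ± 17.2 with the shRNAs and was not called. Its counts in shRNA3 were 320, 357 and 1101, low in libraries 1 and 2 as for CCNE2.

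Counted together, 5 of the 10 genes rose and 2 fell with shRNA1, where 57.4% of all genes tested were called. With shRNA2 5 rose and 3 fell (53% of all genes called), and with shRNA3 5 rose and 2 fell (53.9%). The 5 that rose were CDK4, CDK6, CCND3, CCNE1 and CCNE2 each time, while the genes that fell differed beyond CCND2: CDKN2B with shRNA1, CDKN2A and CDKN2B with shRNA2, and MTAP with shRNA3. CCND2, which had to differ, is 1 of the falls in each count. Over all genes, 16.0% were called higher and 19.7% lower with all 3 hairpins. Those 5 genes were also above NC in all 9 shRNA libraries, as 19.0% of all genes were, and CCND2 was below it in all 9, as 25.8% were. With both directions pooled and CCND2 included, the share of the 10 genes called is somewhat above that of all genes. For 10 genes chosen with earlier results known, this gap is not read as a trait of the genes. By direction, the 5 rises stand beside 26.8%, 24.6% and 26.4% of all genes called higher with shRNA1, shRNA2 and shRNA3. The 2, 3 and 2 falls stand beside 30.6%, 28.4% and 27.6% called lower. The 3 comparisons share the NC libraries. No call among CDK4, CDK6, CCND3, CCNE1 and CCNE2 was lost when any of the 12 libraries was left out. Leaving out shRNA3 libraries 1 and 2 together, 6 rose and 3 fell with shRNA1, where 71.3% of all genes were called (34.3% higher, 37.0% lower). With shRNA2 6 rose and 4 fell (68.1% of all genes, 32.1% higher and 36.0% lower), and in shRNA3 library 3 6 rose and 3 fell (56.9%, 28.1% higher and 28.8% lower). RB1 was the added rise.

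Between hairpins, few of the 10 genes were called in the fit of all 12 libraries, and the calls depended on the libraries fitted. Between shRNA1 and shRNA2 none was called (12.3% of all genes were), with 3 at an unadjusted p under 0.05 and 0 by DESeq2. With only the libraries of shRNA1 and shRNA2 fitted, CDKN2A, CDKN2B, MTAP, CCNE1 and CCNE2 were higher and CDK4 lower with shRNA1 (edgeR adjusted p of 0.0431 or less). The share of all genes called in that fit is not given. CDK6 and CCNE2 were higher with shRNA1 than with shRNA3, by 0.48 and 1.60 on the log2 scale (edgeR adjusted p = 0.0374 and 0.0392), where 30.0% of all genes were called. CDKN2A and CDKN2B were lower with shRNA2 than with shRNA3, with log2 differences of −1.85 and −1.81 (edgeR adjusted p = 0.0477 and 0.0314), where 8.34% were called. These calls were not stable: leaving out 1 of the 12 libraries at a time lost the call for CDK6 in 9 of 12 cases, CCNE2 in 11, CDKN2A in 11 and CDKN2B in 10. With shRNA3 libraries 1 and 2 left out, the log2 difference between shRNA2 and shRNA3 was 0.38 for CDKN2A (edgeR adjusted p = 0.298) and −0.68 for CDKN2B (edgeR adjusted p = 0.345), and 1.28% of all genes were called. CDK6 and CCNE2 were then not called between shRNA1 and shRNA3 either (0.57 and 0.48; edgeR adjusted p = 0.093 and 0.135). In that comparison 8.10% of all genes were called, and CDKN2A was, 1.38 higher with shRNA1 (edgeR adjusted p = 0.00132). Within the fit that leaves those libraries out, shRNA1 and shRNA2 did differ: CDKN2A, CDKN2B, MTAP, CCNE1 and CCNE2 were higher and CDK4 lower with shRNA1, 6 of 10 genes beside 36.8% of all genes.

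Per length of the principal transcript, levels can be set side by side, but the order depends on the length chosen. For CDKN2A that transcript has 1283 bases and all annotated exons together 4329, while its count sums p16INK4a and p14ARF transcripts. In NC, CCND1 had the highest level of these genes (63.7 ± 1.47 CPM per kb, SD, n = 3), followed by CDKN2A (47.5 ± 2.41), CDK4 (42.1 ± 3.99) and CCND3 (31.3 ± 2.37). MTAP (13.7 ± 1.68), RB1 (8.89 ± 0.46), CDKN2B (7.88 ± 1.16), CCND2 (5.66 ± 1.39), CCNE1 (5.49 ± 0.546) and CDK6 (4.63 ± 0.657) came next, and CCNE2 was lowest (0.782 ± 0.116). CDKN2A and CDK4 differed by less than the sum of their SDs, and so did each neighbouring pair from RB1 to CDK6. With shRNA2 the order was led by CDK4 (120 ± 5.80 CPM per kb) and CCND3 (55.1 ± 0.996), CDKN2A stood at 14.7 ± 0.463, RB1 at 12.6 ± 0.901, CCNE1 at 12.6 ± 0.597 and CDKN2B, the lowest apart from CCND2, at 1.88 ± 0.032.

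**Figure D4:**
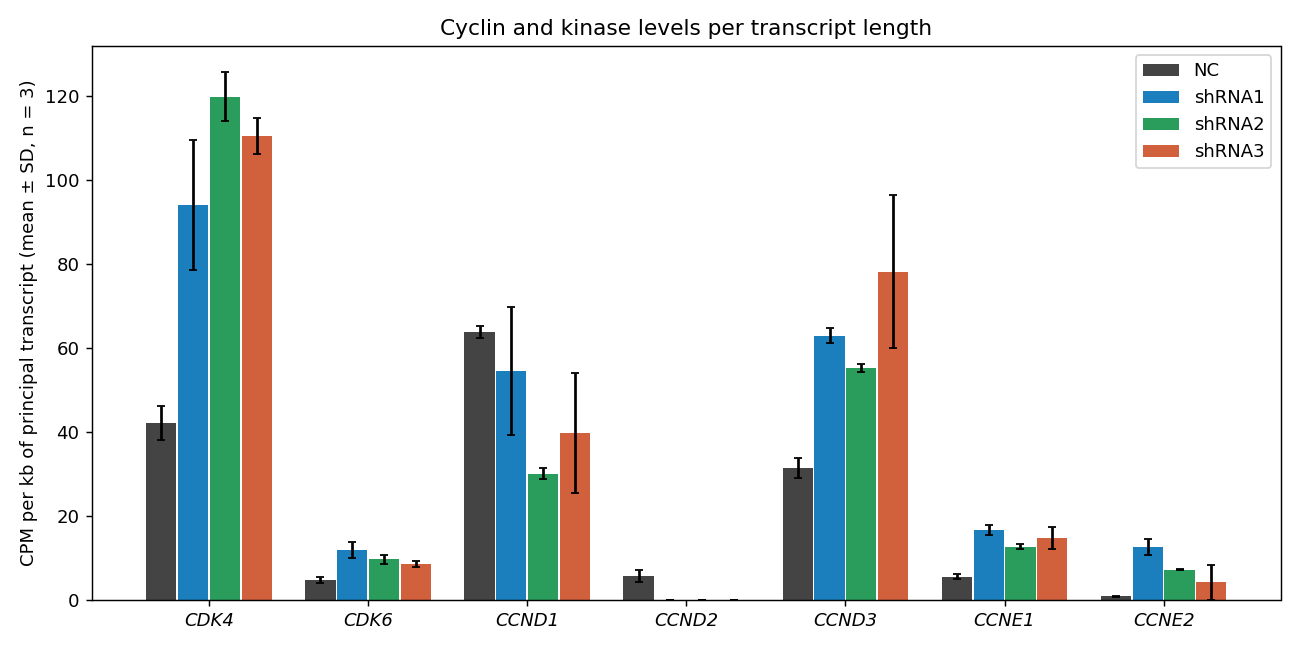
Mean CPM per kb of principal transcript (vertical axis, starting at 0; error bars ± SD, n = 3) of the cyclin and kinase genes in the 4 groups. CDK4, CDK6, CCND3, CCNE1 and CCNE2 have taller bars with every hairpin than in NC, CCND2 has a bar in NC only, and CCND1 is lowest with shRNA2.

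Of 23 other genes of the pathway, all tested, 14 rose and 3 fell with shRNA1, 14 and 4 with shRNA2, and 14 and 3 with shRNA3, with median log2 fold changes of 0.87, 0.79 and 0.89. The rises include activators such as E2F1 and, with every hairpin, the inhibitor gene CDKN1C, so these counts do not measure the activity of the pathway. Over all genes 26.8% were higher and 30.6% lower with shRNA1, 24.6% and 28.4% with shRNA2, and 26.4% and 27.6% with shRNA3, with medians of −0.02, −0.05 and −0.03. Leaving out libraries 1 and 2 of shRNA3, the list medians were 0.88, 0.81 and 0.77. Over all genes the medians were then −0.05, −0.09 and −0.09. E2F1, the first activator E2F, rose from 21.4 ± 2.67 CPM to 67.4 ± 4.33, 81.5 ± 2.13 and 67.9 ± 11.9 (SD, n = 3). E2F2, a related activator, rose 10.8-, 18.2- and 13.9-fold from 2.52 ± 0.265 CPM in NC, and CDC25A, the phosphatase that activates CDK2, rose 20.4-, 13.0- and 7.23-fold from 4.81 ± 0.404 CPM. In shRNA3 library 3 alone these were 23.2-fold for E2F2 and 13.1-fold for CDC25A. E2F5, a repressor E2F, fell by 0.89, 0.89 and 0.66 and TFDP2, a dimerisation partner of E2Fs, by 0.83, 0.56 and 0.83 on the log2 scale (edgeR adjusted p of 0.0337 or less). E2F5 was not called in shRNA3 library 3 alone (−0.40, edgeR adjusted p = 0.234). The RB1 relatives parted. RBL1 (p107) rose 2.10- and 1.83-fold with shRNA1 and shRNA2 and was at 0.06 on the log2 scale with shRNA3 (1.87-fold higher in shRNA3 library 3 alone, edgeR adjusted p = 3.34e-05). RBL2 (p130), the relative of resting cells, fell 4.63- and 2.56-fold with shRNA1 and shRNA2, and its log2 fold change with shRNA3 was −0.71 (edgeR adjusted p = 0.0987; −1.77 and 0.000616 in library 3 alone). CDKN1A (p21), an inhibitor of CDK2, was at 104 ± 4.85 CPM in NC, 162 ± 20.1 with shRNA1, 110 ± 3.57 with shRNA2 and 374 ± 177 with shRNA3. The last rise was 3.61-fold (edgeR adjusted p = 0.000381), and 1.71-fold in library 3 alone (edgeR adjusted p = 0.000236).

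E2F target genes moved mostly one way. Of 25, all tested, 21 rose with each hairpin, and 1, 0 and 1 fell, with median log2 fold changes of 1.39, 1.80 and 1.51. Of all genes 26.8%, 24.6% and 26.4% rose. With shRNA3 libraries 1 and 2 left out, 22 of the 25 rose with each hairpin, beside 34.3%, 32.1% and 28.1% of all genes, and the medians were 1.41, 1.82 and 1.62. CHEK1, a checkpoint kinase gene, rose 5.16-, 5.29- and 7.20-fold from 7.95 ± 0.734 CPM, and ORC1, of the origin recognition complex, 5.60-, 5.73- and 4.77-fold from 14.5 ± 2.46 CPM (SD, n = 3). TK1, the thymidine kinase gene, was the exception, falling by 0.52 with shRNA1 and 0.58 with shRNA3 (edgeR adjusted p = 0.0163 and 0.0101). In shRNA3 library 3 alone TK1 was not called (−0.22, edgeR adjusted p = 0.208). It is named, after its values were seen, because it was the only target on the list that fell.

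**Figure D5:**
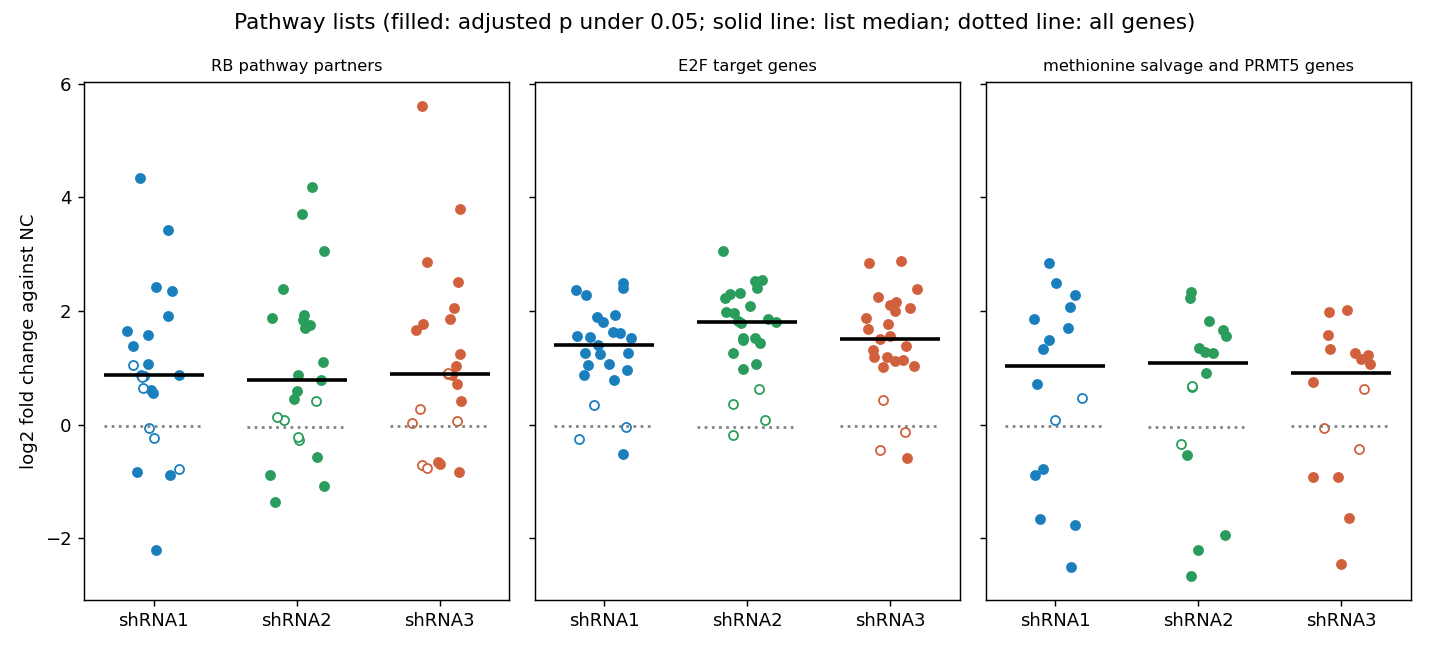
Log2 fold change against NC (vertical axis) of the tested genes of 3 lists by hairpin, filled where the adjusted p is under 0.05, with the list median as a solid line and the median of all genes dotted. The E2F target medians lie between 1.39 and 1.80, and those of the methionine salvage and PRMT5 genes between 0.91 and 1.09.

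MTAP feeds the methionine salvage pathway, and its substrate inhibits the arginine methyltransferase PRMT5. Of 16 genes of salvage, polyamine synthesis and PRMT5 complexes, 9 rose and 5 fell with shRNA1, 10 and 4 with shRNA2, and 9 and 4 with shRNA3, with median log2 fold changes of 1.03, 1.09 and 0.91. The shares of all genes were 26.8% higher and 30.6% lower, 24.6% and 28.4%, and 26.4% and 27.6%. In the fit without libraries 1 and 2 of shRNA3, the list medians were 1.04, 1.10 and 0.92, with all genes at −0.05, −0.09 and −0.09. ODC1, the first enzyme of polyamine synthesis, rose 7.17-, 5.03- and 4.05-fold from 79.1 ± 5.04 CPM, and ADI1, a dioxygenase of salvage, 4.20-, 3.55- and 3.95-fold from 26.8 ± 2.42 CPM (SD, n = 3). MAT2A, which makes S-adenosylmethionine, rose 5.64-, 2.56- and 2.39-fold from 82.7 ± 14.0 CPM, and 3.82-fold in shRNA3 library 3 alone. APIP, the dehydratase of salvage, fell by 2.51, 1.94 and 2.45 on the log2 scale, and MAT2B, the regulatory partner of MAT2A, by 0.89, 0.54 and 0.92. The pathway's enzymes therefore did not move as a block. PRMT5 was at 113 ± 8.32 CPM in NC and was not called (log2 fold change 0.47, 0.69 and −0.06; edgeR adjusted p = 0.173, 0.0579 and 0.875). With shRNA3 libraries 1 and 2 left out, PRMT5 rose by 0.48, 0.70 and 0.64 (edgeR adjusted p = 0.00328, 0.000205 and 0.00527).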

How the data were processed

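The authors deposited expected counts, that is estimated counts for each gene with no scaling by library size, and 13.8% of the values are not whole. Per the submitters' processing notes, GRCh38, HISAT2 and HTSeq 0.11.2 were used. Their roles, the annotation, filters and use of strand are not given in the sources used here. Counts were rounded. Each of the 12 columns matched 1 sample title. Of 61044 IDs, 60652 had a symbol in a table of gene names and 27609 were at 0 throughout. Positions came from GENCODE release 29, by Ensembl ID.

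Counts were scaled by TMM (factors 0.771 to 1.11) and filtered by edgeR's filterByExpr (minimum count 10, minimum total 15), which left 17532 genes, all 10 members among them. edgeR 4.0.16 in R 4.3.3 fitted the 4 groups over 12 libraries (robust quasi-likelihood, two-sided, 8 residual degrees of freedom, common biological coefficient of variation 0.289), with Benjamini-Hochberg adjustment over all genes and a threshold of 0.05. DESeq2 1.42.0 was an alternative. A fold against a group at or under 3 counts is a bound, taken at the largest CPM that 3 counts have in its libraries. Tested on simulated data for shRNA1 against NC (17532 genes), the fit recovered 15 of 100 genes changed 2-fold and 72 of 100 changed 4-fold, with 3 false calls. No other genes were changed there, whereas 57.4% of all genes were called with shRNA1 in the data. The adjustment is stricter when few genes change, so these shares do not give the sensitivity behind the calls above. Intervals cover counting error only. No pair of libraries of a group agreed within sampling noise.

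Members, lists and alternatives were chosen with earlier results of these data known. Named from each list were up to 2 genes per direction, ranked by the smallest of their 3 changes, if called alike with all 3 hairpins and at a mean of at least 1 CPM, and always CCND1, CDKN1A, RBL1, RBL2, E2F1, PRMT5 and MAT2A. A further list is not reported here. For the locus, its nearest tested neighbours, CDKN2B-AS1 and MIR31HG were named as well.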

Additional observations from a re-analysis of the deposited data

How the results depend on the processing

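Members called against NC stayed within 1.5 times the main counts of 7, 8 and 7 under every alternative run. Between hairpins the counts did not hold. Between shRNA1 and shRNA2 (0 called), 6 were called with only the 6 libraries compared or without shRNA3 libraries 1 and 2, and 0 to 6 with 1 library left out, 6 without shRNA3 library 3. Between shRNA1 and shRNA3 (2 called), counts were 0 with no filter, 1 with the replicate block, 0 with only the 6 libraries, 4 by DESeq2, 1 without shRNA3 libraries 1 and 2, and 0 to 7 with 1 library left out, 7 without shRNA3 library 3. Between shRNA2 and shRNA3 (2 called), they were 1 with no filter, 1 with the replicate block, 0 with only the 6 libraries, 0 without shRNA3 libraries 1 and 2, and 0 to 7 with 1 library left out, again 7 without shRNA3 library 3. Between hairpins, shares of all genes called are given above only for the main fit and the fit without shRNA3 libraries 1 and 2. For the other alternatives, the fit without shRNA3 library 3 included, no such share is given. Their counts therefore do not set these genes apart from all genes. The cause of the shifts in these counts was not tested.

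The log2 fold change of CDKN2A, shRNA3 against NC, was −0.0013 with the replicate block, −2.06 without shRNA3 libraries 1 and 2, and −0.14 to 0.64 with 1 library left out. That of CDKN2B ranged from −0.45 to 0.088 with 1 library left out. That of RB1 was −0.022 at a mean of at least 50 counts, −0.013 with the replicate block, and −0.39 to 0.30 with 1 library left out. Between shRNA1 and shRNA2, RB1 was at −0.012 with no filter, −0.00071 at a mean of 50 counts, −0.028 with the replicate block, −0.0069 with only the 6 libraries, and −0.19 to 0.14 with 1 left out. Without shRNA3 libraries 1 and 2, signs also turned between shRNA1 and shRNA3 for CDKN2A (1.38), CDKN2B (0.20), RB1 (−0.15) and CCND3 (0.12), and between shRNA2 and shRNA3 for CDKN2A (0.38), MTAP (−0.28), RB1 (−0.15), CCNE1 (0.013) and CCNE2 (−0.33). MTAP with shRNA3 was not called with only the 6 libraries (−1.01, edgeR adjusted p = 0.0694). DESeq2 size factors changed no member call. Of 1083 member values under alternatives, 952 kept direction and side of the threshold.

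Same-numbered libraries of different groups did not deviate together (mean correlation −0.011 over 18 pairs, 0.0044 over 36 pairs with different numbers), so the replicate numbers were not taken as pairs, and the replicate block changed no member call against NC. Leaving out shRNA3 libraries 1 and 2 leaves 1 shRNA3 library, assumed to vary like the other groups.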
